A study of Mus musculus with 8 samples.

Results

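The genes described here are the Rnf (ring finger) genes, taken as every gene whose symbol is Rnf followed by digits, in whole testes of Brwd1 mutant mice and of controls. The table held 78 such genes on 167 probe sets, of 18193 genes with probe sets of a single symbol. Each gene was read from its probe set with the highest mean over all 8 arrays. That mean includes the mutants, so a fall in mutants can change which probe set is chosen, as for Rnf138 below. Of the 78 genes, 71 were bright enough to be tested, at a mean intensity above 67.1. The 7 others (Rnf39, Rnf122, Rnf152, Rnf183, Rnf207, Rnf222 and Rnf225) had means of at most 58.5 and were not tested.

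The mutant mice were Brwd1-/- and the others are titled wild type, with 4 mice in each group, 27 days old and untreated, and 1 array per mouse of whole testis. The genotype entry of the controls reads Brwd1+/-, so they may carry 1 mutant copy. The name wild type is kept for them. The labels state neither the strain nor the kind of mutation. By the design text, germ cells at this age are past meiosis and spermatids are partly developed. The comparison asks which transcripts differ at that stage. Markers of earlier germ cells were also bright enough to be tested, 18 of spermatocytes and 13 of spermatogonia.

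Ubiquitin is attached to proteins in a chain of steps: an E1 enzyme activates it, an E2 enzyme carries it, and an E3 ligase brings the E2 to the substrate. The RING finger is a zinc-binding fold that holds the E2, and most Rnf proteins are E3 ligases of this kind. Some are made in nearly every cell and act on chromatin, DNA repair or protein quality control. Others are made mainly in male germ cells, where ubiquitin is also used to remodel chromatin and to clear cytoplasm while spermatids become sperm.

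From textbook knowledge the genes were sorted into 6 germ-cell-restricted members (Rnf133, Rnf148, Rnf151, Rnf138rt1, Rnf17 and Rnf32), 2 members enriched in testis but found elsewhere (Rnf141 and Rnf19a), 44 widely expressed members and 26 remaining ones. The lists were drawn up with earlier results of these arrays known.

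The arrays had median intensities of 90.7 to 124. Markers of the labelled tissue were present: all 18 spermatocyte markers and 13 Sertoli cell markers were bright enough to be tested. Replicates 1 and 2 of both genotypes stood apart from replicates 3 and 4 on the first principal component, which held 51.1% of the variance, and no label names a batch. The summed intensity of 8 epididymis markers followed this split: 4232 and 1750 in mutant replicates 1 and 2, 74627 and 81151 in mutant replicates 3 and 4, 5798 and 914 in wild-type replicates 1 and 2, and 66833 and 67005 in wild-type replicates 3 and 4. Tests between genotypes were therefore run unblocked, and again with a block for the replicate number (the replicate block) or for the split (the split block). The Brwd1 probe set with the highest mean averaged 353 ± 199 in mutants and 339 ± 152 in wild type (SD, n = 4 each), and none of the 4 Brwd1 probe sets tested was called. The labels do not say which part of the transcript is altered, so this checks nothing about the genotype.

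Of the 71 tested Rnf genes, the 3 with the largest differences between genotypes were germ-cell-restricted members. Rnf133, Rnf148 and Rnf151 read several-fold lower in mutant testes, Rnf138rt1 was modestly lower, and Rnf17 and Rnf32 overlapped between genotypes. The median log2 difference, mutant minus wild type, was -1.22 over the 6 restricted members, 0.04 over the 44 widely expressed members and 0.17 over the 19 remaining members tested, beside 0.07 over all 13795 genes tested. Differences and folds are on the log2(intensity + 16) scale, which understates the change of dim genes. In RNA of whole testis, fewer cells of a type and less RNA per cell cannot be told apart.

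No Rnf gene passed an adjusted p of 0.05 without a block, where 0.319% of all genes were called lower and 0.0145% higher (limma). At an unadjusted p under 0.05 there were 11 of 71 members (15.5%), beside 9.63% of all genes. With the replicate block 4 members (5.63%) were called lower, Rnf133, Rnf148, Rnf4 and Rnf113a2, against a background of 3.19% lower. With the split block the count was 3 (4.23%), without Rnf133, against 2.22%. No member was called higher with either block, where the backgrounds were 0.312% and 0.471%. With mutant replicate 1 left out and the split block kept, 5 of 71 members were called lower, those 4 and Rnf151. In that fit 564 of all 13795 genes were called lower.

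In 8 members the highest mutant value lay under the lowest wild-type value, which held for 5.34% of all genes. These were 4 of the 6 restricted members (Rnf133, Rnf148, Rnf151 and Rnf138rt1), 2 of the 44 widely expressed members (Rnf4 and Rnf139) and 2 of the 19 remaining ones (Rnf113a2 and Rnf125). In 2 members, Rnf144b and Rnf145, every mutant value lay above every wild-type value, as in 2.53% of all genes.

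Rnf133 encodes a membrane ligase of the endoplasmic reticulum that is made in spermatids. It read 42.1, 513, 390.1 and 556 in mutant replicates 1 to 4, against 1794, 2603, 2055 and 1249.6 in wild-type replicates 1 to 4. All mutants lay below all wild-type mice, and mutant replicate 1 was far below the other mutants. The means were 375 ± 233 in mutants and 1926 ± 563 in wild type (SD, n = 4 each), a log2 difference of -2.69 (SE 0.68), or 6.46-fold lower. The limma adjusted p was 0.134 unblocked, 0.0362 under the replicate block and 0.0659 under the split block. Without mutant replicate 1 the difference was -1.92. Within replicates 1 and 2 it was -3.63, against -1.75 in the other two.

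Rnf148 encodes a close relative of Rnf133, and both genes lie on chromosome 6 within the span of Cadps2 and on its strand. It read 44.2, 353, 277 and 507 in mutant replicates 1 to 4, against 1139, 1947, 1686 and 1063 in the wild-type ones. The pattern over mice was that of Rnf133, with no overlap and mutant replicate 1 lowest. Its means were 295 ± 193 in mutants and 1459 ± 428 in wild type (SD, n = 4 each), a log2 difference of -2.56 (SE 0.60), or 5.91-fold lower. Adjusted p-values from limma were 0.111 unblocked, 0.0249 under the replicate block and 0.0481 under the split block. Leaving out mutant replicate 1 gave -1.90. Replicates 1 and 2 alone gave -3.34, and replicates 3 and 4 alone gave -1.79. The surrounding gene Cadps2 did not share the pattern: it read 87.9, 54.0, 196 and 209.9 in mutants and 89.9, 86.1, 203 and 249.998 in wild type.

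Rnf151, on chromosome 17, encodes a ring finger protein of developing spermatids that has been linked to acrosome formation. It read 357, 2415, 1286 and 1779 in mutant replicates 1 to 4 and 4833, 6554, 4682 and 2811 in wild-type replicates 1 to 4. The lowest wild-type mouse was only slightly above the highest mutant. Means were 1459 ± 868 in mutants and 4720.1 ± 1529.7 in wild type (SD, n = 4 each), 3.76-fold lower, with a log2 difference of -1.91 (SE 0.54). It was not called, with limma adjusted p-values of 0.179 unblocked, 0.0539 under the replicate block and 0.101 under the split block. Leaving out mutant replicate 1 made the difference -1.35, and with the split block the adjusted p was then 0.0045.

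The 3 genes that read several-fold lower together are shown with the 250 bases before their start, next to the same stretch of Rnf32, a restricted gene whose genotypes overlapped. Sequences and coordinates are from RefSeq, build GRCm38.p6. They are chr6:23650306-23650555 (minus strand) for Rnf133, chr6:23655137-23655386 (minus strand) for Rnf148, chr17:24718058-24718307 (minus strand) for Rnf151 and chr5:29195743-29195992 (plus strand) for Rnf32, all written 5′ to 3′ on the gene's strand. Capitals mark each CG dinucleotide and, in Rnf133 and Rnf148, a run of 10 letters that both windows hold.
Rnf133: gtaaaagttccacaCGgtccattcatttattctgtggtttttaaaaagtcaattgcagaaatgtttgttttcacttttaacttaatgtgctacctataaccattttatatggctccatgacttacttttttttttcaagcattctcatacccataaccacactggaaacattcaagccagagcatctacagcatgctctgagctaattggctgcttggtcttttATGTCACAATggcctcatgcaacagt
Rnf148: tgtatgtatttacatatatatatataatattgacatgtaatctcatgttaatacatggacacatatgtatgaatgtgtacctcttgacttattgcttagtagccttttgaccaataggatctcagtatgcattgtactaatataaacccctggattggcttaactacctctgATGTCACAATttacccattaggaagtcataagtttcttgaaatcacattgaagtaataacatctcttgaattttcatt
Rnf151: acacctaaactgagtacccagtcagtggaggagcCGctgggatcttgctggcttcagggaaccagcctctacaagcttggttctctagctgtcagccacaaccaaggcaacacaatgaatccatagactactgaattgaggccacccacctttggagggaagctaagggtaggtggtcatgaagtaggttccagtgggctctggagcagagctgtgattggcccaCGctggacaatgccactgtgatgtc
Rnf32: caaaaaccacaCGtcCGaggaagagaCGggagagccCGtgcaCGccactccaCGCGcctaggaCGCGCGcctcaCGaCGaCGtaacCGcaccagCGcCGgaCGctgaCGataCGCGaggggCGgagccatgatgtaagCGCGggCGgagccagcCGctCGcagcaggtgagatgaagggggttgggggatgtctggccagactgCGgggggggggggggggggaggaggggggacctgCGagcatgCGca

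These windows hold 1 CG in Rnf133, 0 in Rnf148, 2 in Rnf151 and 29 in Rnf32. Rnf138rt1, whose window is not shown, holds 12. Of 32817 promoter windows in the table, 29.1% hold at most 2 CG and 6.78% hold at least 29, with a median of 6. A window was found for 62 of the 78 Rnf genes, and 6 of these hold at most 2 CG. The median was 2 over the 5 restricted members with a window and 17.5 over 38 widely expressed members, of which 2 (Rnf20 and Rnf220) hold at most 2. So few CG therefore also occur in widely expressed members that overlapped between genotypes.

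The shared run, ATGTCACAAT, begins 26 bases before the start of Rnf133 and 78 before that of Rnf148. It was found after the sequences were seen, and 44 windows (0.134%) hold it on either strand. The letters TATAAA, searched on both strands, occur in the windows of Rnf133 and Rnf148 and in 12.4% of all windows. The palindrome TGACGTCA, the full cyclic AMP response element, is in 1.55% of windows and in none of the 4 printed. Its shorter form TGACG, searched on both strands and contained in it, is in 17.8% of windows. Of the restricted members, Rnf32 and Rnf138rt1 hold it.

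Rnf138rt1, the X-linked retrogene relative of Rnf138, read 503, 488, 416 and 508 in mutants and 641, 781, 798 and 598 in wild type. All mutant values lay under the wild-type ones, and mutant replicate 1 was not the lowest. The means were 479 ± 42.8 in mutants and 705 ± 99.6 in wild type (SD, n = 4 each), a log2 difference of -0.54 (SE 0.15). It was not called, with limma adjusted p-values of 0.167 unblocked, 0.107 under the replicate block and 0.0723 under the split block. Probes of near-copies such as Rnf138 and Rnf138rt1 may bind both transcripts.

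Rnf17, a Tudor-domain protein of germ cell granules that male mice need to form sperm, read 608, 657, 2132 and 1857 in mutants and 759, 1329.9, 1621 and 1755 in wild type. These values followed the split of the replicates more than genotype. The means were 1313 ± 795 in mutants and 1366 ± 442 in wild type (SD, n = 4 each), with a log2 difference of -0.21 that was not called (limma adjusted p = 0.997). Its 3 other probe sets gave -0.08, -0.06 and 0.22.

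Rnf32, first found as a gene of spermatogenesis, read 4766, 5656, 6316 and 6092 in mutants and 5052, 5672, 6078 and 5603 in wild type. Its log2 difference was 0.02 (SE 0.12), and the genotypes overlapped fully. Of the restricted members, Rnf32 and Rnf17 thus differed by less than the spread between mice.

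**Figure D1:**
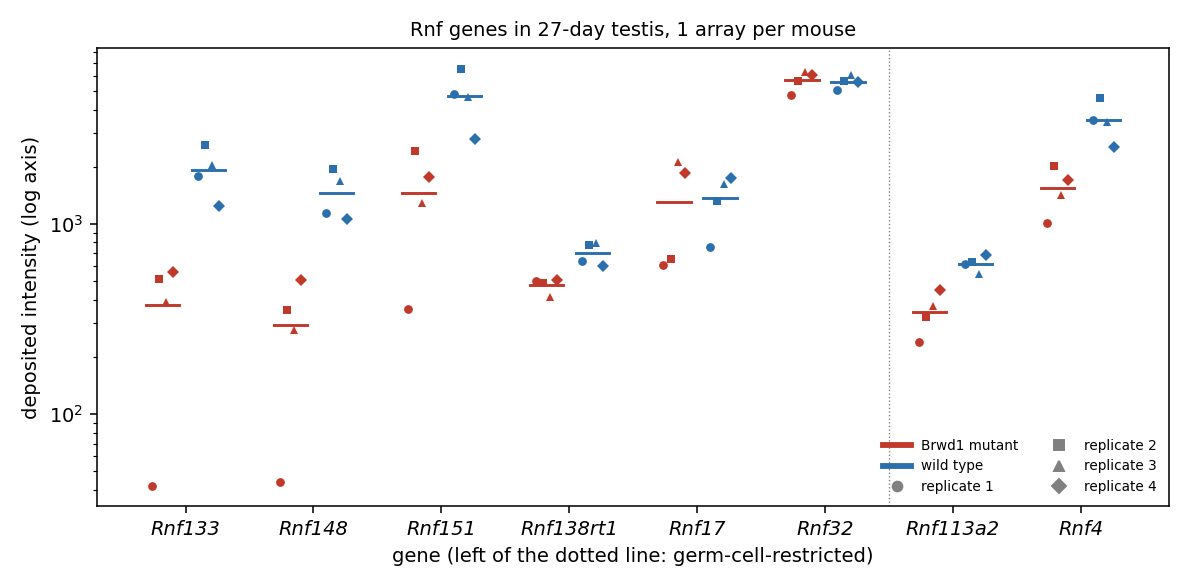
Deposited intensity (log axis) of the restricted Rnf members, Rnf113a2 and Rnf4, 1 point per mouse. Brwd1 mutants stand left of wild type, with a marker for each replicate number, and bars are means over 4 mice. Rnf133, Rnf148 and Rnf151 show no overlap and a mutant replicate 1 far below the other mutants. Rnf138rt1, Rnf113a2 and Rnf4 show no overlap either, while Rnf32 and Rnf17 overlap.

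Spermatid markers were lower in mutants, as Rnf133, Rnf148, Rnf151 and Rnf138rt1 were and Rnf17 and Rnf32 were not. All 18 spermatid markers lay lower in every mutant than in every wild-type mouse, and 1, 13 and 9 of them were called lower in the unblocked, replicate-block and split-block fits. Their median log2 difference was -2.09, and their summed intensity ranged over 13226 to 47258 in mutants and 104399 to 179986 in wild type, with mutant replicate 1 lowest. In mutant replicate 1 the markers Tssk6, a spermatid kinase, and Spem1, which spermatids need to shed cytoplasm, read 8.89 and 9.43, at the bottom of the scale. The other mutants read 517, 134 and 201 for Tssk6 and 391, 138 and 300.5 for Spem1, and no marker of the 18 was below the filter value of 67.1 in mutant replicates 2 to 4. The 18 spermatocyte markers had a median of -0.12, with 0, 2 and 2 called lower in the same 3 fits, and sums of 40066 to 54007 in mutants and 45580 to 55826 in wild type. The part of the spermatid markers in the Rnf differences was not tested.

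Outside the restricted list, Rnf4 and Rnf113a2 were the members called with both blocks. Rnf4 encodes a ligase that recognises proteins tagged with SUMO chains. On the probe set that represents it, it read 1009, 2028, 1429 and 1712 in mutant replicates 1 to 4 and 3545, 4624, 3455 and 2548 in wild-type replicates 1 to 4. No values overlapped. The means were 1545 ± 433 in mutants and 3543 ± 850 in wild type (SD, n = 4 each), 2.30-fold lower, with a log2 difference of -1.20 (SE 0.25). Its limma adjusted p was 0.0839 unblocked, 0.0210 under the replicate block and 0.0376 under the split block. The other Rnf4 probe set averaged 842 ± 44.9 in mutants and 789 ± 63.2 in wild type and was not called (log2 difference 0.09), and the mean of both gave -0.56. The difference of Rnf4 therefore rests on 1 of its 2 probe sets. Rnf4 overlaps A830049F12Rik on chromosome 5, and which of them each probe set matches was not checked.

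Rnf113a2, an autosomal relative of the splicing factor gene Rnf113a1, lies on chromosome 12 within the span of Bbof1. It read 239, 325, 372 and 449 in mutants and 614, 631, 548 and 685 in wild type, with no overlap. Means were 346 ± 87.7 in mutants and 620 ± 56.5 in wild type (SD, n = 4 each), a log2 difference of -0.84 (SE 0.19), or 1.79-fold lower. The limma adjusted p was 0.106 unblocked, 0.0338 under the replicate block and 0.0394 under the split block. X-linked Rnf113a1 had a log2 difference of -0.03. Whether the Rnf113a2 probe set also matches Bbof1 was not checked.

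The widely expressed members other than Rnf4 and Rnf41, 42 genes, spanned log2 differences of -0.48 to 0.36. Rnf41, a ligase that acts on ErbB receptors, averaged 591 ± 169 in mutants and 1093 ± 302 in wild type (SD, n = 4 each). Its log2 difference of -0.87 was not called (limma adjusted p = 0.268, and 0.0933 with the replicate block), and its other tested probe sets gave 0.04 and -0.55. Rnf139, a sterol-sensing ligase of the endoplasmic reticulum, read 3481, 5818, 5848 and 5782 in mutants and 6787, 8148, 8015 and 5882 in wild type. No values overlapped, the highest mutant lying just under the lowest wild-type mouse. Its difference of -0.48 was not called (limma adjusted p = 0.450), and its other probe set gave -0.51.

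Of the 6 members with the highest mean intensities, Rnf32 and Rnf139 are given above and the 4 others overlapped between genotypes. Rnf187 averaged 9799 ± 1136 in mutants and 9486 ± 705 in wild type (log2 difference 0.04), and its other tested probe sets gave 0.03 and -0.27. Rnf181 averaged 9066 ± 2533 in mutants and 7592 ± 1621 in wild type (0.24). Its dimmer probe set, which averaged 115 in mutants and 56.2 in wild type, passed the filter on low values only through the mutants and was not called. Rnf126, a ligase of the BAG6 pathway that clears mislocated proteins, averaged 5160.3 ± 1320.5 in mutants and 5914 ± 1072 in wild type (-0.21). Rnf7, the RING subunit of CUL5 ligases, averaged 5587 ± 617 in mutants and 5179 ± 559.8 in wild type (0.11, and -0.06 on its other probe set). Each n was 4, and none of these 4 genes was called in any of the 3 fits.

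Rnf8, which marks chromatin at DNA breaks and is needed for sperm formation in mice, averaged 774 ± 55.6 in mutants and 679 ± 33.3 in wild type (SD, n = 4 each; log2 difference 0.18, limma adjusted p = 0.806). Its partner Rnf168 had a difference of -0.09. Rnf2, the catalytic subunit of Polycomb repressive complex 1, had 0.08, and Rnf20 and Rnf40, which together ubiquitinate histone H2B, had -0.01 and 0.16. None of these 5 was called. They were picked as examples after their values were seen and are not all members with such roles: Rnf4 and Rnf138, described in other paragraphs, also act in DNA repair, and each has a probe set called lower with both blocks.

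Rnf144b, a ligase induced by p53, was higher in every mutant than in every wild-type mouse, at 6068, 5220.1, 5142 and 4871 in mutants and 4442, 4089.9, 4179 and 4370.0 in wild type. Its log2 difference was 0.31 (SE 0.10) and was not called (limma adjusted p = 0.286, 0.101 with the replicate block and 0.0812 with the split block). Its other probe sets gave 0.48 and 0.22. Rnf145, a sterol-regulated ligase of the endoplasmic reticulum, averaged 1876 ± 219 in mutants and 1458 ± 125 in wild type (SD, n = 4 each; log2 difference 0.36, limma adjusted p = 0.363). Rnf125, known for its action on antiviral sensors, averaged 1007 ± 85.6 in mutants and 1359.9 ± 172 in wild type (-0.42, limma adjusted p = 0.262). Of the testis-enriched pair, Rnf19a averaged 2756 ± 529.96 in mutants and 3619 ± 655 in wild type (-0.39, limma adjusted p = 0.563, and 0.0821 with the replicate block), and Rnf141 had 0.06.

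**Figure D2:**
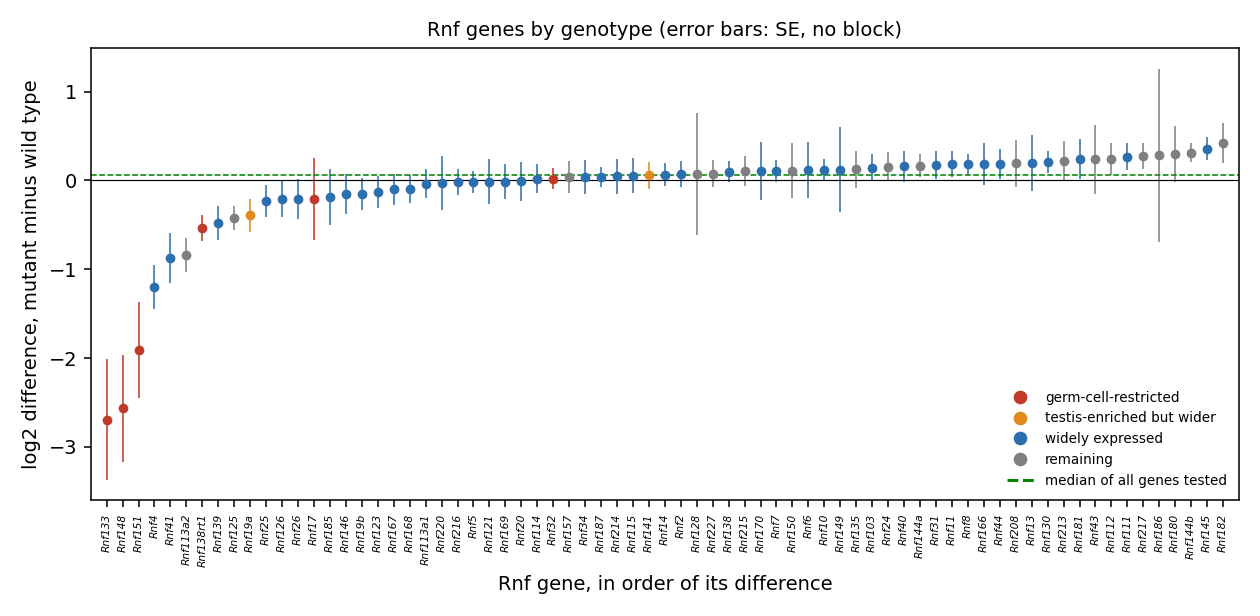
Log2 difference, mutant minus wild type, with its standard error from the fit without a block, for the 71 tested Rnf genes. Genes stand in order of the difference, coloured as restricted, testis-enriched, widely expressed and remaining members. The differences run from -2.69 (Rnf133) to 0.42 (Rnf182), and 4 members lie below -1, 3 of them restricted.

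Of 40 members with more than 1 tested probe set, 22 (55%) had probe sets of opposite sign, beside 43.1% of 5864 such genes in all, and signs near 0 carry little weight. Among all 133 tested member probe sets, 9 were called lower with the replicate block and 6 with the split block, against backgrounds of 2.18% and 1.48% of all probe sets, and none was called without a block, where the background was 0.115%. Beside the chosen probe sets of Rnf133, Rnf148, Rnf113a2, Rnf4 and Rnf151, they included another probe set of each of 4 genes whose chosen one was not called. These 4, Rnf24, Rnf138, Rnf141 and Rnf144a, were picked out after their values were seen. The counts of 9 and 6 both include the dim Rnf24 set, which passed the filter on low values only through wild type.

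The dim Rnf24 probe set (1453929) read 5.07, 77.2, 10.5 and 89.7 in mutants and 327, 557, 447 and 177 in wild type. Mutant replicates 1 and 3 were near the bottom of the scale and no values overlapped. The mutant mean, 45.6, was under the filter value and the set was tested only through its wild-type mean of 377, so it had to differ to be called and its values are a description. The brighter probe set had a log2 difference of 0.16. Rnf24 encodes a membrane ring finger protein and overlaps Pank2 on chromosome 2, and which of them this probe set matches was not checked.

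The Rnf138 probe set 1419368 read 1009, 1809.9, 1681 and 1445 in mutants and 2902, 3655, 3815 and 2189 in wild type. In wild type it was the brightest Rnf138 set, with a mean of 3140 against 2350 for the chosen one. In mutants it averaged 1486 against 2528, which made it second over all arrays. Its log2 difference was -1.07 (limma adjusted p = 0.129 unblocked, 0.0162 under the replicate block and 0.0432 under the split block), while the other Rnf138 probe sets gave 0.10 and 0.16. Rnf138 encodes a ligase of DNA end repair.

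For Rnf141 the probe set 1449087 read 309, 711, 487 and 556 in mutants and 905, 1166, 1090.1 and 752 in wild type, a log2 difference of -0.94 (limma adjusted p = 0.0387 with the replicate block and 0.0879 with the split block), against 0.06 and 0.03 for the other tested sets. For Rnf144a, a relative of Rnf144b, 1421242 read 163, 204, 154 and 119 in mutants and 345, 395, 244 and 254 in wild type. Its log2 difference was -0.88 (limma adjusted p = 0.0231 with the replicate block and 0.0228 with the split block), against 0.17 for the brighter set. Another Rnf144a probe set, too dim to be tested, went the other way, with 37.5, 23.6, 47.4 and 33.3 in mutants and 10.8, 13.2, 8.45 and 4.85 in wild type. In all 4 genes the genotypes did not overlap on the called set and overlapped on the other tested ones. The genes were picked for a call on a set other than the chosen one, so this is a description.

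Whether 2 probe sets of a gene differ was tested as the within-array log2 ratio of the other to the chosen one. Of 62 such ratios in 40 members none was called in any of the 3 fits, and none of 9631 over all genes was called (0%). At an unadjusted p under 0.05 without a block there were 8 member ratios (12.9%, against 7.13% over all genes). With the replicate block there were 9 (14.5%, against 10.7%). Both counts include the dim Rnf24 probe set, which was tested only through wild type. The difference of the ratio for Rnf4 was 1.30 log2 units (limma adjusted p = 0.191 without a block). No disagreement between probe sets of a member was thus past the threshold. As no ratio of any gene was, this does not show that the probe sets agree.

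**Figure D3:**
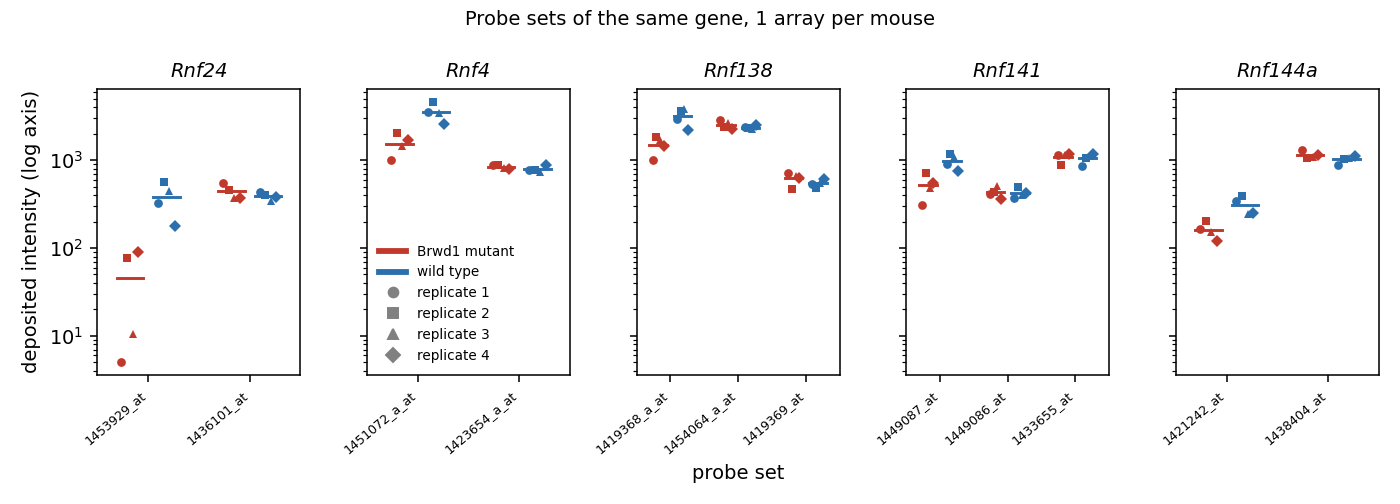
Deposited intensity (log axis) on each tested probe set of Rnf24, Rnf4, Rnf138, Rnf141 and Rnf144a, 1 point per mouse with a marker for each replicate number, Brwd1 mutants left of wild type; bars are means over 4 mice. In each gene, picked after its values were seen, 1 probe set separates the genotypes and the others overlap. That of Rnf24 passed the filter on low values only through wild type.

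The split of the replicates moved many Rnf genes. In the fit with genotype and the split as terms, 13 members were higher and 16 lower in replicates 3 and 4 than in replicates 1 and 2 (18.3% and 22.5% of the 71, against 22.5% and 20.3% of all genes). Rnf186, a ligase of intestinal epithelium, read 38.2, 20.5, 226 and 272 in mutants and 32.5, 4.603, 240.0 and 229 in wild type. Rnf43 read 70.1, 77.2, 110 and 106 in mutants and 66.8, 26.8, 92.7 and 150 in wild type. Both passed the filter on low values only through replicates 3 and 4, so their values are a description. The 13 higher members and their 18.3% include these genes, whose rise the filter favoured. Rnf128, a ligase known from T cell anergy, read 438, 265, 1448 and 1835 in mutants and 399, 373, 1148 and 1479 in wild type (1.96 log2 units higher).

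Rnf149 was 1.33, Rnf17 1.18, Rnf6 0.86 and Rnf13 0.81 log2 units higher in replicates 3 and 4, while Rnf220 was 0.81, Rnf121 0.65 and Rnf181 0.61 lower. In the 3 restricted members with the largest genotype differences, none was called between replicates: the split difference was 0.52 in Rnf133 (limma adjusted p = 0.556), 0.62 in Rnf148 (0.404) and 0.03 in Rnf151 (0.973). No interaction between genotype and the split was called, in any member or in any of the 13795 genes (0%), and at an unadjusted p under 0.05 there were 3 members of 71, 4.23% against 5.35% of all genes. The part of the epididymis markers in the split of the Rnf genes was not tested.

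**Figure D4:**
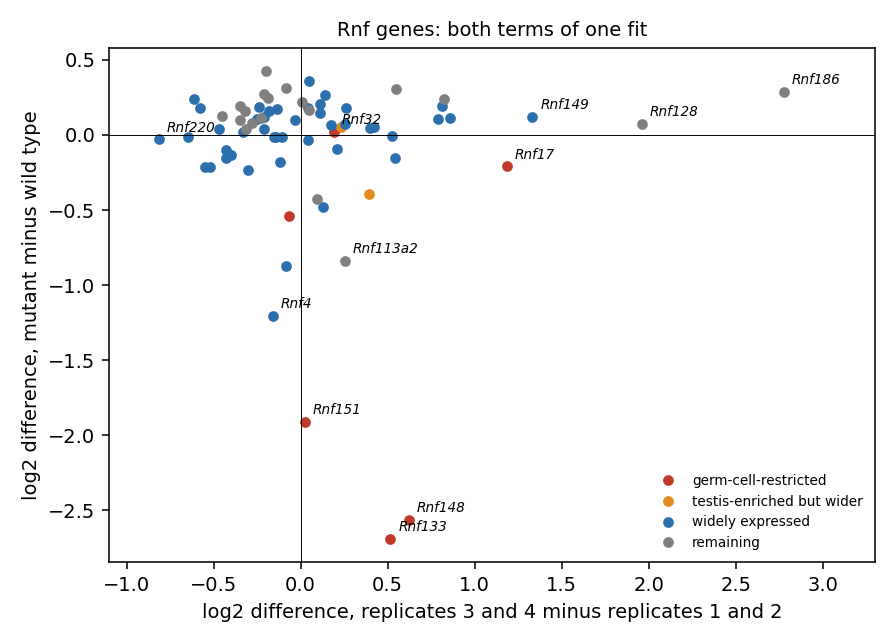
Log2 difference by genotype (mutant minus wild type, vertical) against log2 difference by the split of the replicates (3 and 4 minus 1 and 2, horizontal) from the same fit, 1 point per tested Rnf gene, coloured by class. Rnf133, Rnf148, Rnf151 and Rnf4 lie low near the middle of the horizontal axis, and Rnf186, Rnf128 and Rnf149 lie far right near 0 on the vertical one.

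The enzymes that work with the ligases were read from lists. Of 37 ubiquitin E1 and E2 enzymes 32 were tested, with none called without a block, 3 (9.38%) called lower with either block, beside 3.19% of all genes with the replicate block and 2.22% with the split block, and none higher, and a median log2 difference of 0.01. Ube2j1, an E2 of the endoplasmic reticulum that mice need for normal sperm, read 2369.9, 3795, 2459 and 2628 in mutants and 5180.1, 6080.3, 5063 and 3537 in wild type. Only mutant replicate 2 lay above the lowest wild-type mouse. Its log2 difference was -0.82 (SE 0.21) (limma adjusted p = 0.136 unblocked, 0.0222 under the replicate block and 0.0403 under the split block).

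Ube2k averaged 4202 ± 395 in mutants and 5917 ± 776 in wild type (SD, n = 4 each), a log2 difference of -0.49 (limma adjusted p = 0.149 without a block, 0.0303 and 0.0455 with the replicate and split blocks). Cdc34, the E2 of SCF ligases, averaged 3325 ± 1280.2 in mutants and 5685 ± 1815 in wild type (SD, n = 4 each), a log2 difference of -0.80 (limma adjusted p = 0.450 without a block, 0.0198 and 0.0096 with the 2 blocks). The fourth by p, Ube2w, had -0.30 and was not called. Of 50 partners and pathway genes of Rnf ligases, 42 were tested and none was called in any fit, with a median of 0.04. The partners with the smallest p were Pias1, a SUMO ligase (-0.31), Tdrd9 of the piRNA pathway (0.22), Eloc, a subunit of cullin ligases (-0.30), and Sel1l, a scaffold of degradation at the endoplasmic reticulum (0.19).

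Markers of the other cell types had medians nearer 0 than those of spermatids. The medians were 0.15 over 13 spermatogonial, 0.12 over 13 Sertoli and 0.14 over 6 Leydig markers. They were 0.09 over 6 peritubular, 0.10 over 8 endothelial and 0.22 over 10 macrophage markers. Sums over the 14 spermatogonial markers on the array were 22741 to 24558 in mutants and 20086 to 21457 in wild type, without overlap. None of the 13 tested was called in any of the 3 fits. Of the endothelial markers 1 was called higher with the replicate block and 2 with the split block, and their sums were 3028 to 3269.9 in mutants and 1972 to 2586 in wild type. Of the macrophage markers 1 was called higher with either block, and their sums were 11753 to 17287 in mutants and 9786 to 13410.4 in wild type. The 1 blood marker tested had 0.47, and the 8 epididymis markers a median of 0.13.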

How the data were processed

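The submitters' processing notes name GCOS, with no version or settings; the deposited unit is array intensity, not logged. RNA came from whole testis through Trizol and columns, per the labels' protocols, and every array has a trimmed mean of 500. No detection calls are used, so how dim a probe set can be and still be detected is unknown; 154 to 218 of them read below 1 on each array. Symbols came from the platform annotation, updated through Entrez identifiers for 34741 of 34945 probe sets with 1 symbol (932 had several, 9160 none). Of 45037 non-control probe sets, those above the 40th percentile of mean intensity were kept (27022), and the brightest per gene represented it (13795 genes).

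Values were log2(intensity + 16). Genotypes were compared with limma 3.58.1 (R 4.3.3), intensity trend, two-sided, Benjamini-Hochberg over all genes, threshold 0.05; the fits were tested on simulated data. Both genotypes share the replicate numbers in the labels. Deviations of same-numbered mice correlated (r 0.519 to 0.618 in 4 pairs), which counts as pairing by the rule used, although only 2 of 8 mice were closest to their own number. The pairing and the split of replicates come from the data, not the labels. With 1 array per mouse, p-values rest on the spread among mice.

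Members, lists, tests and alternatives were chosen with earlier results of these data known. Full values are given for restricted members, members called in any of the 3 fits, the 6 brightest, up to 8 others without overlap, the other probe sets of these, and up to 4 genes per list by p. Figures used matplotlib 3.10.9.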

Additional observations from a re-analysis of the deposited data

Results flagged for a closer look

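Rnf139 in mutant replicate 1 read 3481, far below the 3 other mutants at 5782 to 5848. The gap to the nearest mutant made up 0.972 of the range over the 4 mutants, above Dixon's critical value. Of 40 groups examined for such a distance, 1 met it, and chance gives about 1 in 20.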

How the results depend on the processing

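The array number, 4 mice per genotype, limits precision, and leaving out mutant replicate 1 raised the counts below. Without a block 44 genes were called lower and 2 higher, and 0 Rnf genes either way. The replicate block gave 440 lower and 43 higher over all genes, with 4 Rnf genes lower, and the split block 306 and 65, with 3 Rnf genes lower. The replicate block changed no other Rnf call. With the split block and without mutant replicate 1 the counts were 564 and 76 over all genes and 5 Rnf genes lower. Within replicates 1 and 2 they were 0 and 0, and within replicates 3 and 4 they were 27 and 1. A pseudocount of 1 gave 22 lower and 0 higher, and one of 64 gave 96 lower. No filter gave 1 higher, and the 60th percentile filter 27 lower and 0 higher. An adjusted p of 0.01 left 0 and 0, and one of 0.10 gave 203 and 20, with 1 Rnf gene lower (Rnf4). Leaving out 1 mouse at a time gave 0 to 187 lower and 0 to 4 higher over all genes and 0 to 2 Rnf genes lower; the highest, with Rnf133 and Rnf148, came without mutant replicate 1.

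Among the genes given in full, signs turned only for 3 that were never called. Rnf17 (-0.21) was 0.24 within replicates 3 and 4, and between -0.51 and 0.0798 when 1 mouse at a time was left out. Rnf187 (0.04) was -0.0177 within replicates 3 and 4, -0.0629 as the mean of its probe sets, and between -0.024 and 0.0932 with 1 mouse left out. Rnf32 (0.02) was -0.0439 within replicates 1 and 2, -0.0195 after median centring, and between -0.0294 and 0.106 with 1 mouse left out. The cause was not tested. The test of probe set ratios and the fit on single probe sets were chosen after seeing the data.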
